A study of Homo sapiens with 16 samples.

Results

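Gene expression of untreated Caco-2 cells was described from the 4 arrays of cells kept in medium (MED-CTL), chosen by their titles from the 16 arrays of the series. Caco-2 is an established human cell line from a colon carcinoma. All 16 arrays hold total RNA of undifferentiated Caco-2 cells seeded in MEM with 1% FCS, washed on day 3 after seeding and exposed for 6 h, 4 arrays per condition. MED-CTL cells received medium, p31-43 cells 150 µg/ml of a synthetic gliadin peptide, PT-G cells gliadin digested with pepsin and trypsin, and PT cells a blank digest without gliadin. The 4 replicates of a condition were independent experiments whose cells differed in passage, and all cells were detached with trypsin before RNA extraction. The line is 1 cell type grown without other cells, so a signal has no other cell type as its labelled source. In a bulk sample, fewer cells with a transcript and less transcript per cell cannot be told apart.

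Enterocytes, the absorptive cells of the intestine, carry a brush border of microvilli built on the actin bundler villin and bearing hydrolases that finish digestion. They arise from proliferating crypt cells that depend on WNT signalling. HNF4A, GATA and FOXA factors act in intestine and liver alike, while CDX factors mark the intestine. Caco-2 cells are known to form an enterocyte-like layer with a brush border only after prolonged confluence, and are widely used as a model of the intestinal epithelium.

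Values are log2 normalized intensities of a probe, the short DNA that captures 1 transcript on the array. Of 41000 probes, 27121 (66.1%) were detected, which means well above background on all 4 MED-CTL arrays. A further 8289 (20.2%) were absent, which means well above background on none, and 5590 were detected on some arrays. Detected probes had mean signals with a median of 9.86, and 95% of probes without detection on any array lay under 6.09. A gene was taken as detected when any of its probes was and is described by its brightest probe, which made 12858 of 17020 named genes (75.5%) detected and 2319 (13.6%) absent. Detection is therefore a low bar, so a signal above the middle of all probe signals, which 10799 detected genes (63.4% of the named genes) had, is given beside it and was chosen after the values were seen. A percentile below is the rank of a gene's brightest probe among all probes. It orders probe signals, which also depend on the probe's own sequence, and not amounts of RNA.

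Before any result, 1 MED-CTL array has to be pointed out, although it was kept in all values below unless stated. Replicates 1 and 2 were scanned in one period and replicates 3 and 4 in another, and the 4 arrays lay on 4 different slides. Replicates 1 and 2 correlated with r = 0.9957 over 40882 probes, whereas replicates 3 and 4 had the lowest correlation of the 6 pairs, 0.9697. Replicate 3 was the array farthest from the others for 47.6% of detected probes and lay on slide 4, whose 3 arrays stood apart from all others on the first principal component. Leaving it out gave 27554 detected probes. Median intensities were between 153 (replicate 3) and 278 (replicate 4), over local backgrounds between 49 and 54.

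The probes with the highest mean signals were those of housekeeping and cytoskeletal genes. The highest named gene was EEF1A1, a translation elongation factor, at 18.34 ± 0.15 (SD, n = 4). The 20 highest also included, in order of probe signal, RPS2, RPS27, RPL13, GSTP1, KRT19, ACTB, IGF2, TUBA1B, RPL7A, HSP90B1, KRT18, OAZ1, RPS14, UBB, HSPD1, XRCC6 and RPLP0. Among these 20 stood 2 epithelial keratins, KRT19 and KRT18, and 1 fetal growth factor, IGF2. KRT19 read 18.02, 17.97, 18.11 and 18.18 on replicates 1 to 4, and IGF2 read 18.04, 17.92, 17.93 and 17.83. The spread over the 4 arrays, highest minus lowest, was 0.21 on the log2 scale for both.

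The labelled cell type was checked with 5 intestinal markers, and all 5 were detected on every array, as were 75.5% of all named genes. VIL1, which encodes villin, read 16.04, 16.24, 16.26 and 15.86. FABP1, a fatty acid carrier of enterocytes and hepatocytes, read 14.97, 14.11, 14.21 and 14.57. APOA1, the main protein of high density lipoprotein, read 16.49, 15.65, 14.33 and 16.30. The VIL1 values lay close together, while APOA1 was lowest on replicate 3. CDX2, the transcription factor that sets intestinal identity, read 11.26, 10.99, 10.33 and 9.79, and ALPI, the intestinal alkaline phosphatase of the brush border, read 8.33, 7.92, 7.41 and 7.99. ALPI thus lay at percentile 50.5, the lowest rank of the 5. Its signal on each array was above 6.09, under which 95% of probes without detection on any array had their means.

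**Figure D1:**
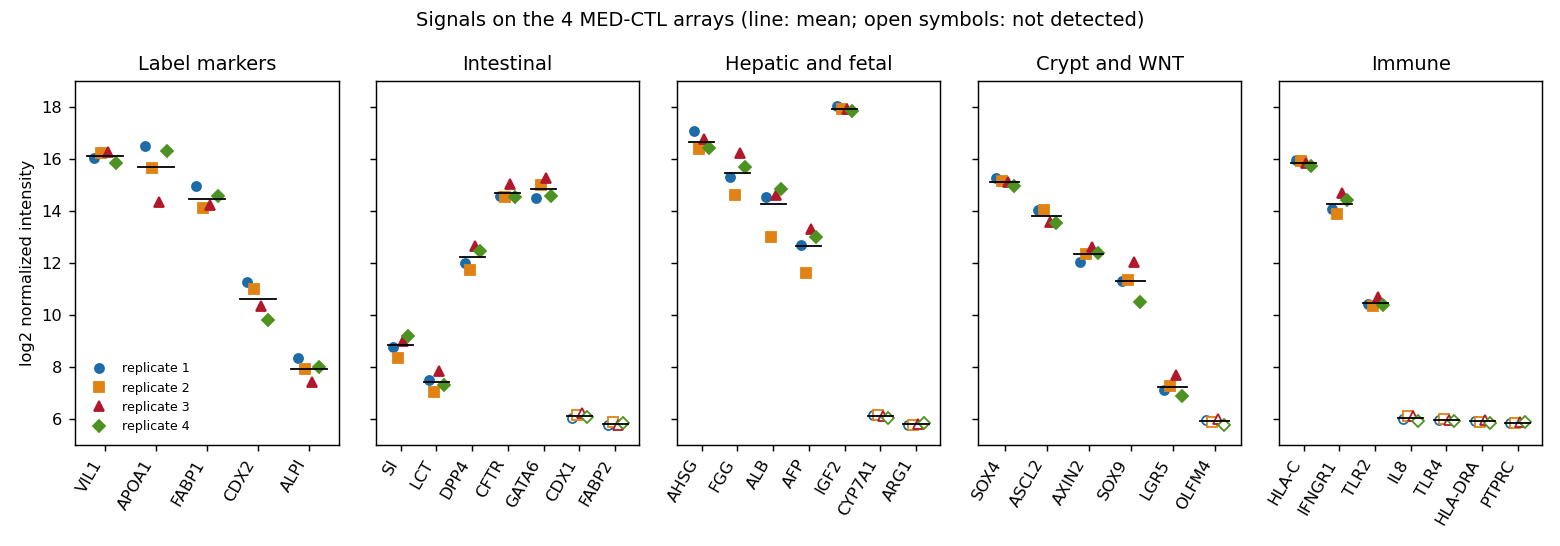
Log2 normalized intensity (vertical axis) of selected genes on MED-CTL replicates 1 to 4, in 5 panels by gene group, with the mean as a line and open symbols for genes that were not detected. VIL1, IGF2 and HLA-C stayed close together over the 4 arrays, ALB and AFP were lowest on replicate 2, and CDX1, FABP2, CYP7A1, ARG1, OLFM4, IL8, TLR4, HLA-DRA and PTPRC lay near 6.

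Genes of epithelial identity and of the brush border skeleton were detected almost throughout. All 20 epithelial genes on the array were detected, 16 of them (80%) above the middle of the probe signals. The shares of all named genes were 75.5% and 63.4%. EPCAM, the epithelial cell adhesion molecule, had a mean of 16.48 ± 0.25 (SD, n = 4). KRT20, a keratin of differentiated intestinal cells, had a mean of 7.76 ± 0.14, and GPA33 (6.65 ± 0.32) and LGALS4 (7.07 ± 0.20), proteins of mature gut epithelium, were also detected but below the middle of the probe signals. Of 17 brush border structure genes, 16 (94.1%) were detected, and 76.5% were detected above the middle. MYO7B was detected on some arrays only. Ezrin, encoded by EZR, links the membrane to actin and had a mean of 15.58 ± 0.26. MYO1A, the myosin of the microvillus, had a mean of 11.96 ± 0.40, and CDHR2, a cadherin that ties microvilli together, had 6.88 ± 0.23.

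Hydrolases and transporters formed a more divided group. Of 19 brush border hydrolases 14 (73.7%) were detected, 8 (42.1%) above the middle, against 75.5% and 63.4% of all named genes. TMPRSS15 (enteropeptidase) and MEP1B were absent. Sucrase-isomaltase, SI, read 8.77, 8.35, 8.99 and 9.18. Lactase, LCT, read 7.50, 7.01, 7.82 and 7.29, and the dipeptidyl peptidase DPP4 read 12, 11.73, 12.64 and 12.45. All 3 were lowest on replicate 2. Of 34 nutrient and ion transporters 28 (82.4%) were detected, among them the chloride channel CFTR (14.68 ± 0.24) by 1 of its 2 probes, the other being absent. The glucose transporter SLC5A1 (6.54 ± 0.12) and the peptide transporter SLC15A1 (7.20 ± 0.39) were detected at low signals, SLC9A3 and the bile acid transporter SLC10A2 were detected on some arrays, and SLC6A14, ABCG8 and S100G were absent. Of 21 colonocyte genes, 13 (61.9%) were detected, and 38.1% were detected above the middle. CA2 (10.64 ± 0.30) was above it and SLC26A3 (7.11 ± 0.33) and AQP8 (6.60 ± 0.19) were below it.

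Of 26 genes for lipid carriers and apolipoproteins 21 (80.8%) were detected, 18 (69.2%) above the middle, against 75.5% and 63.4% of all named genes. APOE had a mean of 16.79 ± 0.23, the lipoprotein receptor SCARB1 of 16.28 ± 0.16 and APOB, the scaffold of chylomicrons, of 11.74 ± 0.62. MTTP, which loads lipid onto APOB, had a mean of 8.30 ± 0.36. FABP2, the fatty acid carrier restricted to the intestine, was absent and read 5.74, 5.88, 5.74 and 5.83, alongside CD36, MOGAT2 and APOC2. FABP1 and FABP2, which mark the same enterocyte, were therefore on opposite sides of detection.

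Intestinal and hepatic transcription factors were split in the same way. Of 23 factors 14 (60.9%, against 75.5% of all named genes) were detected, 3 were detected on some arrays and 6 were absent. GATA6 read 14.50, 14.98, 15.26 and 14.58, and FOXA2 had a mean of 13.79 ± 0.25. HNF4A, a nuclear receptor of enterocytes and hepatocytes, was detected by all 3 of its probes at a highest mean of 8.11 ± 0.53. The absent factors were CDX1, HNF4G, PDX1, NR1H4, NR1I2 and ONECUT2, and GATA4 and GATA5 were among those detected on some arrays. CDX1, the second intestinal CDX factor, read 6.04, 6.14, 6.21 and 6.04, while CDX2 was detected on every array.

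Genes for proteins that the liver secretes into blood were detected in 39 of 51 cases (76.5%), close to the 75.5% of all named genes. Of the 51, 28 (54.9%) were detected above the middle of the probe signals, against 63.4% of all named genes. AHSG, the plasma glycoprotein fetuin-A, read 17.06, 16.39, 16.78 and 16.41. ALB, which encodes albumin, read 14.53, 13, 14.62 and 14.83 by its brightest probe, while its other 2 probes were detected on some arrays only. The fibrinogen chain FGG read 15.30, 14.61, 16.23 and 15.70. Transthyretin (TTR) and the retinol carrier RBP4 had means of 14.98 ± 0.39 and 14.99 ± 0.33, and prothrombin (F2) of 13.99 ± 0.18. The liver-specific plasma proteins did not all appear: the vitamin D carrier GC, coagulation factor F9, C9 and IGFBP1 were absent. ORM1 and ORM2, and HP and its relative, share sequence, so their signals may be shared.

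Genes for the metabolic functions of hepatocytes were detected in 25 of 47 cases, 14 of them (29.8%) above the middle, against 63.4% of all named genes. The asialoglycoprotein receptor chains ASGR1 (12.66 ± 0.28) and ASGR2 (12.77 ± 0.23) and the drug-metabolizing enzyme CYP3A5 (11.89 ± 0.20) were above the middle. CYP3A4, whose sequence is close to that of CYP3A5, was at the edge of detection with 6.44 ± 0.10. CYP7A1, the rate-limiting enzyme of bile acid synthesis, read 6.14, 6.14, 6.12 and 6.02, and arginase (ARG1) read 5.74, 5.74, 5.79 and 5.85. Both were absent, as were CYP2E1, CYP8B1, CYP2C8, OTC, TAT, HAO1, ADH1A, GYS2, SLCO1B1 and SLCO1B3, and in all 13 of the 47 genes (27.7%) were absent against 13.6% of all named genes.

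Of 13 fetal and oncofetal genes 9 (69.2%) were detected, all 9 above the middle, against 75.5% and 63.4% of all named genes. Of the others, 1 (LIN28) was detected on some arrays and 3 were absent. Alpha-fetoprotein, AFP, the fetal counterpart of albumin, read 12.67, 11.61, 13.29 and 12.98. The proteoglycan GPC3 had a mean of 13.59 ± 0.30 and the RNA-binding protein IGF2BP1 of 14.65 ± 0.33. H19, the non-coding RNA next to IGF2, was absent by all 3 of its probes, and DLK1 and PEG3 were absent too. AFP, like ALB, was lowest on replicate 2.

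**Figure D2:**
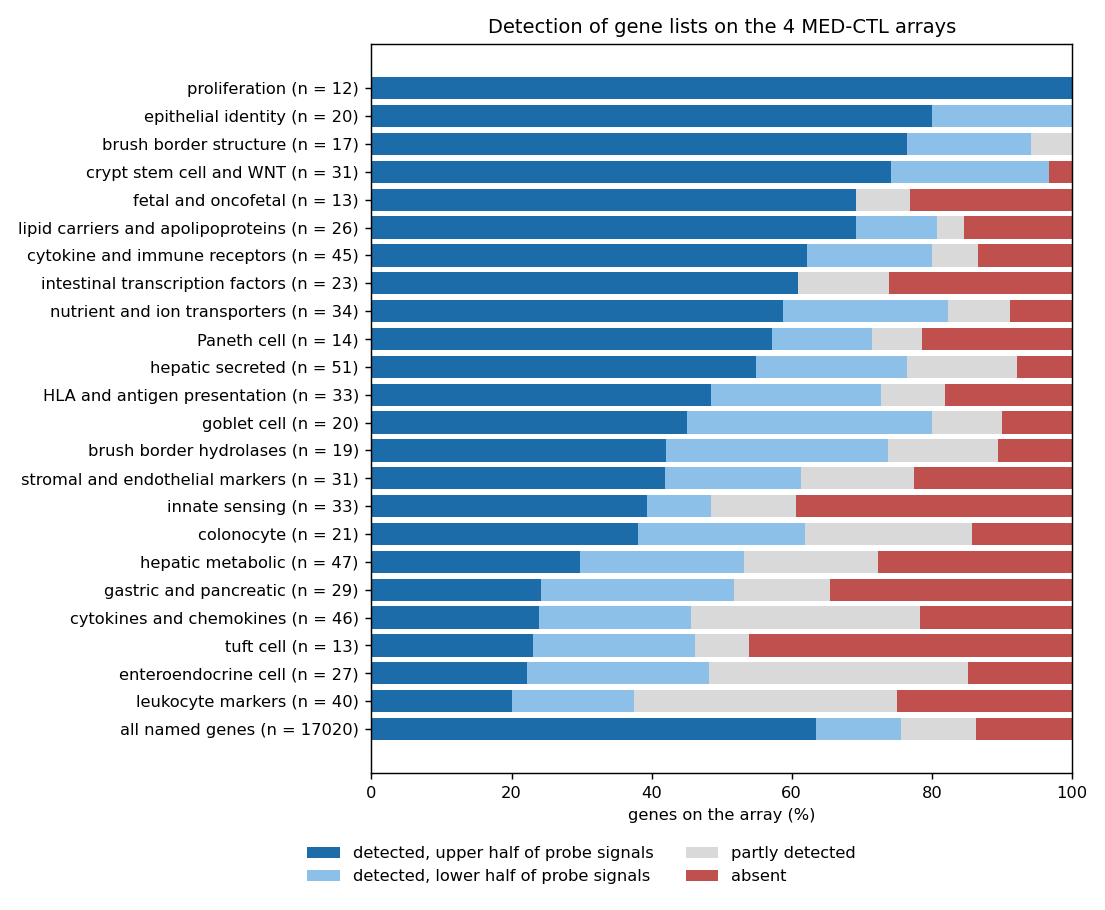
Share of the genes of 23 lists that were detected on all 4 MED-CTL arrays (above or below the middle of probe signals), detected on some, or absent on all 4, with all 17020 named genes at the bottom. The horizontal axis is percent of the genes on the array. Proliferation and epithelial lists are wholly detected, and leukocyte markers have the smallest share above the middle (20%, against 63.4% of all named genes).

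The promoters of 3 genes are printed because they set 2 detected intestinal genes beside an absent hepatic one. They are the 150 bases just upstream of the RefSeq transcript start (assembly GRCh38.p14), read 5′ to 3′ on the gene's strand. Capitals mark TTTATG, a core of the site bound by CDX2, on either strand, so that CATAAA is the same word on the opposite strand. FABP1 (chr2:88128063-88128212, minus strand) and SI (chr3:165078497-165078646, minus strand) were detected, and SLCO1B3 (chr12:20810555-20810704, plus strand), a hepatic bile acid and drug carrier, was absent.
FABP1: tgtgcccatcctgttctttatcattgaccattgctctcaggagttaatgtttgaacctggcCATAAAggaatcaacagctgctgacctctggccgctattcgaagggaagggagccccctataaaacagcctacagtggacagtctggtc
SI: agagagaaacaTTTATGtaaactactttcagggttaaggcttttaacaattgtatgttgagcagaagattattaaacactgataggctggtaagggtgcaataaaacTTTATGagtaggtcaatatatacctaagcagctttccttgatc
SLCO1B3: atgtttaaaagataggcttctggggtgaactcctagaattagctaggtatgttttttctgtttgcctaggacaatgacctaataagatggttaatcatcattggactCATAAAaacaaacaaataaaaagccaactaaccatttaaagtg

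The first base of the word nearest to the start lies 89 bases before it in FABP1, 43 in SI and 43 in SLCO1B3. RefSeq promoters, of 300 bases around the start, were matched for 458 of the 638 list genes on the array. TTTATG on either strand was found in 12 of 48 detected genes of the hepatic secreted and metabolic lists (25%), in 1 of 13 detected on some arrays (7.69%) and in 3 of 10 absent ones (30%), against 10.6% of all 35116 promoters. It was found in 1 of 9 detected brush border hydrolases (11.1%), which is SI, and in 0 of 19 detected crypt genes. A match is a description of these letters, not a bound site.

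Of 31 crypt and WNT genes 30 were detected (96.8%, against 75.5% of all named genes), 23 of them (74.2%) above the middle. SOX4 read 15.29, 15.14, 15.10 and 14.96. ASCL2, a transcription factor of crypt stem cells, read 14.02, 14.04, 13.59 and 13.54, and the WNT target AXIN2 read 12.03, 12.34, 12.61 and 12.36. LEF1, MYC, PROM1, TERT and CD44 were also above the middle, with means between 11.46 (TERT) and 14.25 (MYC). LGR5, the stem cell receptor, read 7.10, 7.25, 7.67 and 6.86, and ranked at percentile 43.9. OLFM4, a secreted marker of the same stem cells, was absent by both of its probes, with 5.96, 5.88, 5.97 and 5.75 for the brighter. All 12 proliferation genes were detected above the middle, from MKI67 at 9.42 ± 0.46 to BIRC5 at 15.67 ± 0.47. Of all named genes, 63.4% were.

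Markers of the secretory lineages were present in part. Of 20 goblet cell genes 16 (80%) were detected, and 45% were detected above the middle, against 75.5% and 63.4% of all named genes. AGR2 (16.54 ± 0.07) and TFF3 (14.22 ± 0.71) were among the brightest probes, while ATOH1, the factor that sets the secretory fate, and CLCA1 were absent. Of 14 Paneth cell genes 10 (71.4%) were detected, and 57.1% were detected above the middle. The defensin DEFA5 was absent, DEFA6 lay at 6.54 ± 0.08, and REG3G and REG1B were absent. LYZ, which encodes lysozyme, read 9.41, 9.05, 10.97 and 9.42 and was highest on replicate 3. Of 27 enteroendocrine genes 13 (48.1%) were detected, with secretagogin (SCGN, 12.68 ± 0.39) and chromogranin B (CHGB, 9.03 ± 0.25) above the middle and NEUROD1, SST, TPH1 and ISL1 absent. Of 13 tuft cell genes 6 (46.2%) were detected, with LRMP at 9.88 ± 0.23, and 6 were absent, DCLK1 and POU2F3 included. Outside the intestine, of 29 gastric and pancreatic genes 15 (51.7%) were detected, of which SPINK1, TFF1 and SOX2 had means of 15.54 ± 0.67, 14.23 ± 0.79 and 12.70 ± 0.29.

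Of 33 genes for HLA and antigen presentation 24 were detected, 16 of them (48.5%) above the middle, against 63.4% of all named genes. Among class I genes, HLA-C read 15.96, 15.91, 15.84 and 15.72, and B2M, the light chain, had a mean of 14.64 ± 0.12. HLA-B, HLA-C and HLA-G share sequence, so their probes may share signal. The class II chain HLA-DRA read 5.92, 5.88, 5.93 and 5.84 and was absent, as were HLA-DQA1 and HLA-DMB. The peptide trimmer ERAP1, which serves class I, had a mean of 6.91 ± 0.21, below the middle. Class II genes were also detected: HLA-DRB1 had a mean of 9.01 ± 0.23, the invariant chain CD74 of 7.51 ± 0.49, HLA-DMA of 6.92 ± 0.44 and the class II activator CIITA, detected by 1 of 4 probes, of 6.41 ± 0.11.

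Of 33 genes for innate sensing 16 were detected and 13 (39.4%) were absent, against 13.6% of all named genes. TLR2, a receptor for bacterial lipoproteins, read 10.40, 10.34, 10.68 and 10.36. TLR4, the endotoxin receptor, read 5.96, 6.00, 5.93 and 5.89 by its brightest probe and was absent by all 3 probes. Its partner LY96 was absent as well, while the coreceptor CD14 (9.61 ± 0.41) and the adaptor MYD88 (11.28 ± 0.46) were detected. TLR1, TLR3, TLR6, TLR8, TLR10, NLRP3, NLRC4 and AIM2 were absent, and TLR5, the flagellin receptor, and NOD2 were detected on some arrays.

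Of 45 cytokine and immune receptors 36 (80%) were detected, against 75.5% of all named genes, with 28 above the middle, including IFNGR1 (14.27 ± 0.37), IL4R (14.61 ± 0.22) and the neonatal Fc receptor FCGRT (14.85 ± 0.29). PIGR, which carries IgA across the epithelium, was absent by both probes. Of 46 cytokines and chemokines 21 (45.7%) were detected, led by MIF (17.44 ± 0.24), IL32 (12.58 ± 0.23) and IL18 (11.20 ± 0.33). IL8 (CXCL8), a chemokine for neutrophils, was absent, and TNF, IL6, IL1B and CXCL10 were detected on some arrays. Among genes linked to celiac disease, transglutaminase 2 (TGM2) had a mean of 12.96 ± 0.28 and IL15 of 6.56 ± 0.26. The trypsin-activated receptor F2RL1 had a mean of 11.23 ± 0.35. CXCR3, a chemokine receptor proposed to bind gliadin, read 7.27, 6.92, 6.44 and 8.26, and these values spread over 1.82 on the log2 scale.

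Markers of other cells that a tissue would hold were checked as well. Of 40 leukocyte markers 15 (37.5%, against 75.5% of all named genes) were detected, 8 of them above the middle, and 10 were absent. Defining markers went both ways. PTPRC (CD45), MS4A1 and SPI1 were absent, with PTPRC at 5.81, 5.83, 5.87 and 5.89, and the T cell receptor chain CD3D was detected on some arrays. The B cell receptor chain CD79A read 9.44, 9.64, 9.46 and 10.42, CD3G read 8.34, 7.29, 8.38 and 7.85, and CD3E had a mean of 7.10 ± 0.18 by 1 of its 2 probes, all detected. CD4 (12.01 ± 0.76), CD8B (11.85 ± 0.18, with both of its probes detected) and CSF1R (11.26 ± 0.31) were also above the middle. Of 31 stromal and endothelial markers 19 (61.3%) were detected, with FN1 (16.40 ± 0.26), TAGLN (15.22 ± 0.25) and VIM (11.70 ± 0.17) above the middle and ZEB1, FAP, POSTN, CDH5 and TEK absent.

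Among the 427 detected list genes the median spread over the 4 MED-CTL arrays was 0.68 on the log2 scale, and 103 genes varied by over 1. The widest spreads included those of CEBPA (6.89), SOX17 (5.54), NEUROG3 (5.14), CYP1A2 (2.41), APOA1 (2.15), TDO2 (1.94), CYP2B6 (1.93) and LYZ (1.92). The first 3 spreads each come from 1 probe. The brightest CEBPA probe read 16.96, 17.08, 10.19 and 15.80, while its other 2 probes had means of 13.87 ± 0.43 and 14.10 ± 0.50. The bright SOX17 probe read 10.61, 11.17, 8.34 and 13.88, while the other SOX17 probe was detected on 1 array only, at 6.91. NEUROG3 had a single probe, which read 14.02, 13.51, 8.88 and 12.65. On the 2 other arrays of slide 4 the same CEBPA probe read 10.74 (p31-43) and 9.87 (PT-G), the NEUROG3 probe 9.14 and 8.51, and the SOX17 probe 8.55 and 8.01, so that all 3 probes were low on each array of that slide. Off slide 4, the CEBPA probe read between 12.75 and 14.74 on the p31-43, PT and PT-G arrays, below its MED-CTL values there. Its high values were thus those of MED-CTL arrays only. The part of the slide in these values was not tested. CEBPA was detected by all 3 probes, whereas the detection of SOX17 and NEUROG3 rests on the 1 unsteady probe each.

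**Figure D3:**
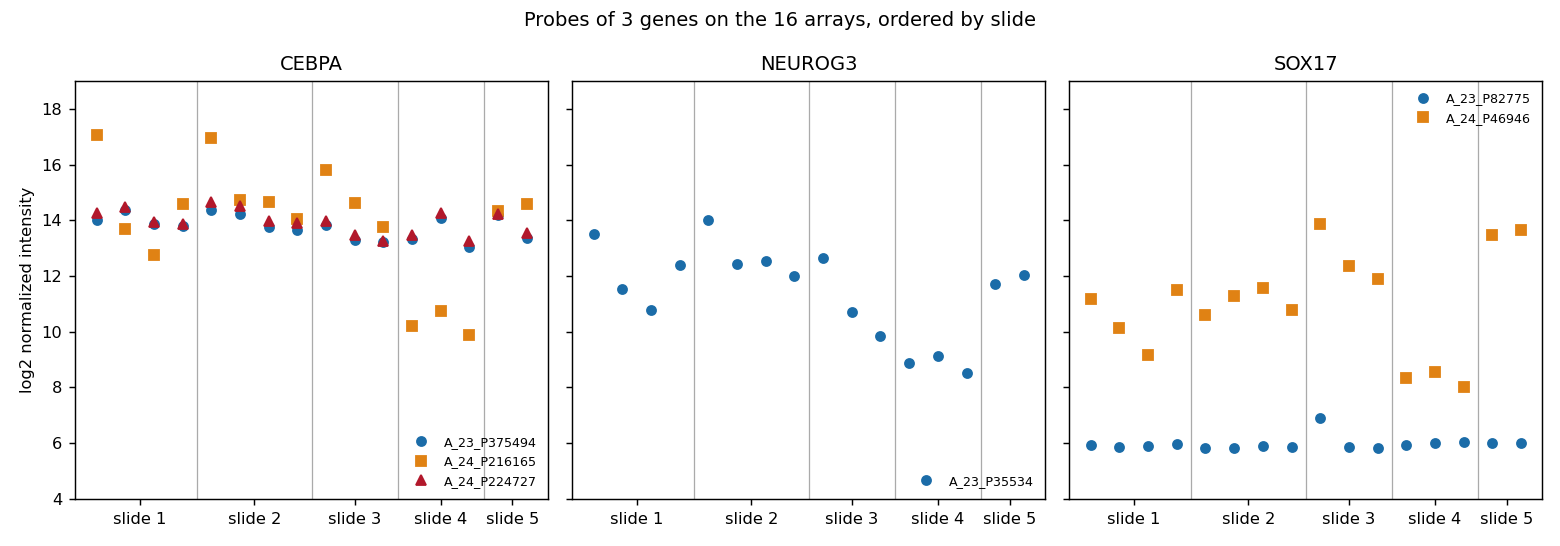
Log2 normalized intensity of every probe for CEBPA, NEUROG3 and SOX17 on the 16 arrays, ordered by slide with MED-CTL first within a slide where it has one. One probe of each gene drops on slide 4 (CEBPA to 10.74 or less), while the other CEBPA probes stay between 13.04 and 14.67.

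Genes for liver plasma proteins varied together, and most members of several other lists varied with them. Of the 39 detected members, 24 (61.5%) were lowest on MED-CTL replicate 2, against 17.8% of all detected named genes. Replicates 1 and 2 lay on slides 2 and 1, which also held 1 array each of the other 3 conditions, so the same difference could be read in arrays that the choice of MED-CTL did not use. The array on slide 1 was lower than that on slide 2 for 35 of the 39 genes in MED-CTL, 37 in p31-43, 36 in PT and 35 in PT-G. Among all detected named genes it was lower for 53.1%, 48.5%, 46.7% and 54.4%. The median difference of the 39 genes was −0.58, −0.64, −0.51 and −0.41 on the log2 scale in the 4 conditions. Of the 39, 32 were lower in all 4, a count that was not taken over all detected genes.

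ALB differed, slide 1 minus slide 2, by −1.53 in MED-CTL, −1.66 in p31-43, −1.47 in PT and −1 in PT-G on the log2 scale. Haptoglobin (HP) differed by −1.52, −1.61, −1.45 and −0.90, and kininogen (KNG1) by −1.37, −1.48, −1.33 and −1.01. HAMP, which encodes the iron hormone hepcidin, was higher on slide 1 in all 4. Lipid carriers showed the same side in 18 of 21 genes in MED-CTL and in 17, 18 and 19 in p31-43, PT and PT-G, and brush border hydrolases in 12, 12, 11 and 13 of 14. Hepatic metabolic genes did so in 19, 19, 20 and 21 of 25, and Paneth cell genes in 9, 7, 7 and 9 of 10. For gastric and pancreatic genes it was 12, 13, 11 and 11 of 15, and for cytokine and immune receptors 27, 23, 22 and 30 of 36. The pattern was thus not particular to liver plasma proteins. The 30 detected crypt genes did not show it, with 13, 15, 11 and 16 lower on slide 1, nor did the 20 epithelial genes, with 10, 10, 10 and 14. In replicate numbers the low array is MED-CTL replicate 2 but replicate 1 of each other condition. The low array thus went with the slide and not with the replicate number given in the titles. Which cultures on a slide came from the same experiment is known only by these numbers. If those of MED-CTL replicates 1 and 2 were interchanged, slide and experiment could not be told apart. The part of the slide itself was not tested.

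**Figure D4:**
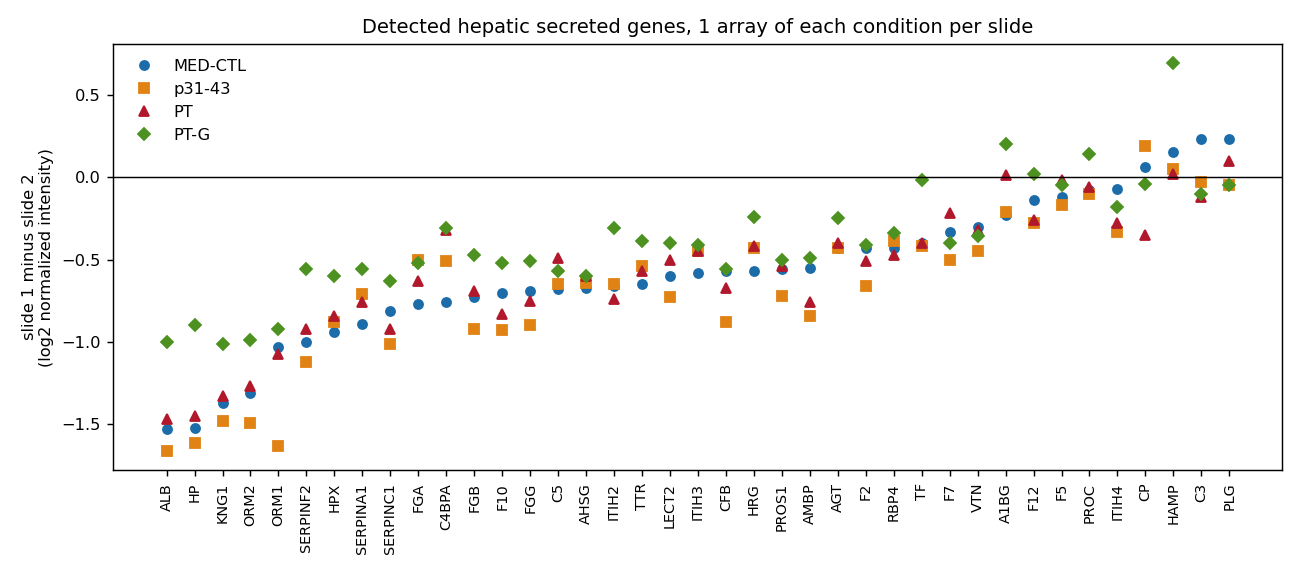
Difference between the array on slide 1 and that on slide 2 (log2 normalized intensity) for the 39 detected hepatic secreted genes, in each of the 4 conditions. Most points lie below 0 in all conditions, from ALB at −1.53 to PLG at 0.23 in MED-CTL, and the order of the genes is alike in the 4 conditions.

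The scan period was tested in limma over all 16 arrays with the condition in the model. The periods also differ in replicate numbers, slides and cell passage, so these cannot be told apart. The fit counts arrays of 1 experiment as independent, so its p-values do not measure the spread between experiments. It separated 10595 of 40982 probes (25.9%, adjusted p under 0.05) and 172 of the 638 list genes (27%), a share close to that of all probes. CDX2 differed by −1.05 on the log2 scale, second minus first period (SE 0.20, limma, adjusted p = 0.00197), with MED-CTL means of 11.12 in the first and 10.06 in the second. ALB was higher by 1.01 (SE 0.29, limma, adjusted p = 0.0205), and the complement gene C5 by 1.02 (SE 0.13, limma, adjusted p = 0.000106). With the MED-CTL arrays alone, no probe passed, while 965 had a nominal p under 0.01.

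The arrays of the stimulated cells show which baseline genes moved within 6 h. All 3 comparisons used the same MED-CTL arrays. In limma, 381 of 40982 probes (0.93%) had an adjusted p under 0.05 between PT-G and MED-CTL, and 340 (0.83%) between PT and MED-CTL. Of these, 239 (62.7%, 0.583% of all probes) were higher and 142 (0.346% of all probes) lower in PT-G, and 178 (52.4%, 0.434% of all probes) were higher and 162 (0.395% of all probes) lower in PT. With each array scaled to its median instead, 140 of 188 (74.5%) and 99 of 151 (65.6%) were higher. No probe passed between p31-43 and MED-CTL, where 881 had a nominal p under 0.05 and 165 under 0.01. Of the 638 list genes, 12 were called for PT-G (9 higher, 3 lower) and 8 for PT (4 higher, 4 lower), shares of 1.88% and 1.25%. None of the 5 intestinal markers was called in these fits. The count for PT-G was 188 without MED-CTL replicate 2, 167 without PT-G replicate 2 and 197 without PT-G replicate 4. The count for PT was 146 without MED-CTL replicate 2, and 197, 165, 167 and 157 without PT replicate 1, 2, 3 and 4. For p31-43 it was 4 without MED-CTL replicate 4 and 1 without p31-43 replicate 2. The replicate number was also added as a block, and was taken to pair the samples for PT-G. This pairing is uncertain for replicates 1 and 2. In deviations from group means, these MED-CTL arrays correlated more with the PT-G array of the other number (0.723 and 0.629) than of their own (0.558 and 0.396). With the block, 1608 probes (3.92%) and 37 list genes passed for PT-G, all 12 above among them. CDX2 was then called at −0.72 (SE 0.17, limma, adjusted p = 0.0393).

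ASCL2 read 12.96, 12.85, 12.81 and 12.91 on the PT arrays, all below its MED-CTL values of 13.54 to 14.04, and fell by 0.91 (SE 0.12, limma, adjusted p = 0.00285). In PT-G cells ASCL2 fell by 0.81 (adjusted p of 0.00473 in limma, SE 0.12). AXIN2 fell by 0.86 under PT (SE 0.17, limma, adjusted p = 0.0368) and changed by −0.69 under PT-G (SE 0.17, limma, adjusted p = 0.103), where the replicate block called it (−0.69, SE 0.15, adjusted p = 0.03). LRMP, a membrane protein of the endoplasmic reticulum, fell by 1.08 under PT and by 1.18 under PT-G (SE 0.21 each, limma, adjusted p = 0.027 and 0.0148).

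KLF5, a factor of crypt cell proliferation, rose by 0.83 under PT-G (SE 0.14, limma, adjusted p = 0.0126) and by 0.73 under PT (limma, adjusted p = 0.029). PPARA, a lipid-sensing nuclear receptor, rose by 0.91 under PT-G and by 0.90 under PT (SE 0.13 each, limma, adjusted p = 0.00411 and 0.00481). CCL20, a chemokine for dendritic cells and lymphocytes, read 8.06, 7.39, 7.54 and 7.88 in MED-CTL and rose by 1.32 under PT-G (SE 0.22, limma, adjusted p = 0.0108). IL8 was not well above background on any MED-CTL array and was so on all 4 arrays of PT-G and of PT. It was at least 1.72-fold higher in PT-G (limma, adjusted p = 0.0126) and at least 1.69-fold higher in PT (limma, adjusted p = 0.0173), taking for each MED-CTL array the higher of its own signal and the lowest signal of a probe well above background. The other genes called for PT-G were KRT20, CYBRD1, PROC, TGFBR2 and TNFRSF10B, all higher, by 0.46 (PROC) to 0.86 (TNFRSF10B) on the log2 scale. With single arrays left out, ASCL2 and PPARA stayed called in both comparisons, and KLF5 and CCL20 for PT-G, with adjusted p in limma of at most 0.0458. IL8 was lost without PT-G replicate 2 (adjusted p = 0.0514) or PT replicate 3 (0.0525) and LRMP for PT-G without PT-G replicate 2 (0.0503). For PT, LRMP was lost without MED-CTL replicate 1, 3 or 4 or PT replicate 1, 2 or 3 (adjusted p up to 0.0978), and KLF5 without MED-CTL replicate 1, 2 or 4 or PT replicate 1, 2 or 4 (up to 0.081). AXIN2 was lost without replicate 2, 3 or 4 of either group (up to 0.123), and CCL20 without MED-CTL replicate 2 or 3 or PT replicate 2, 3 or 4 (up to 0.106). For PT-G, KRT20 was lost without replicate 2 or 4 of either group (up to 0.0956), CYBRD1 without any array but MED-CTL replicate 3 (up to 0.13) and PROC without any array but PT-G replicate 2 (up to 0.151). TGFBR2 was lost without MED-CTL replicate 1, 2 or 4 or PT-G replicate 2, 3 or 4 (up to 0.116), and TNFRSF10B without MED-CTL replicate 1 or 2 or PT-G replicate 2, 3 or 4 (up to 0.115).

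Without the 3 arrays of slide 4, 8 of the 12 genes remained called for PT-G and 5 of the 8 for PT. IL8, LRMP, KRT20 and PROC were then lost for PT-G, and KLF5, LRMP and CCL20 for PT. Other list genes were newly called in this fit, among them MYC in both comparisons and CEBPA for PT. In all, 11 of 635 list genes passed for PT-G (1.73%, against 1.03% of all probes) and 13 for PT (2.05%, against 1.13%).

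**Figure D5:**
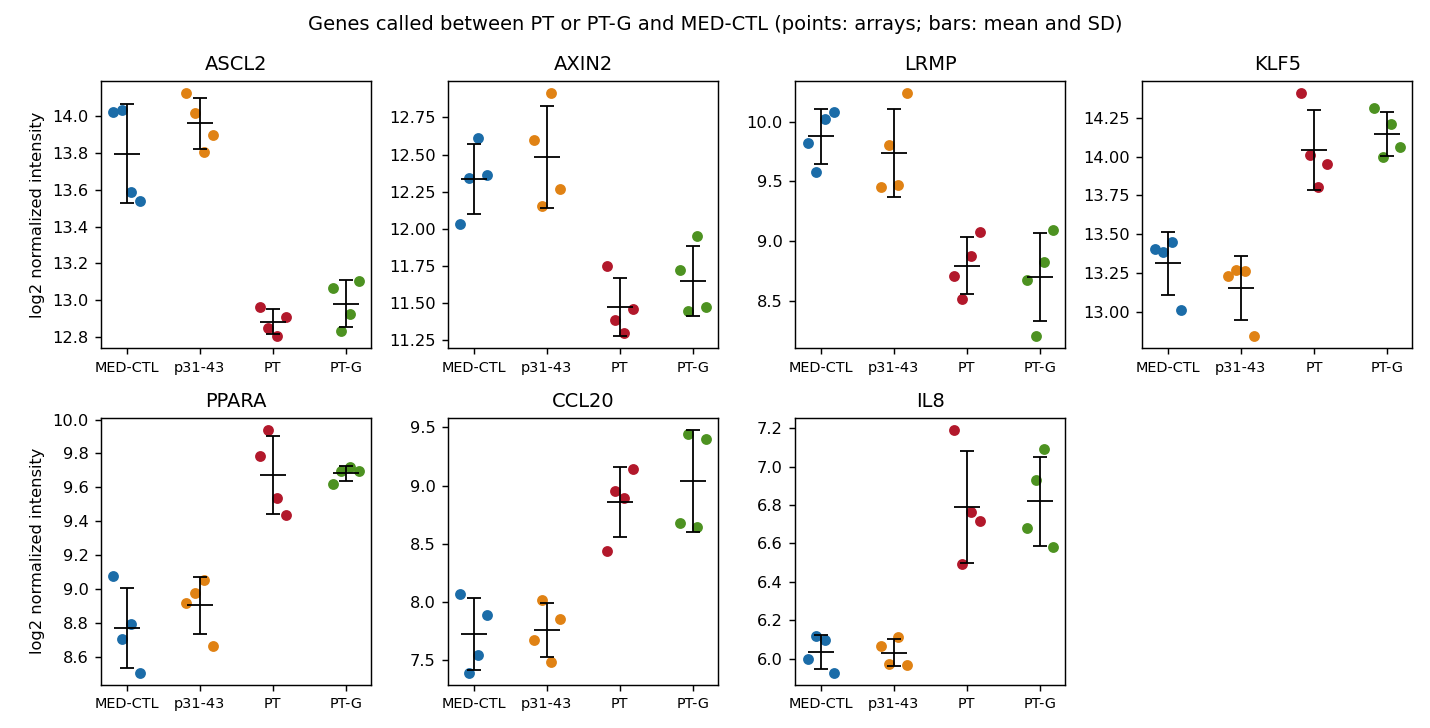
Log2 normalized intensity of 7 genes called between PT or PT-G and MED-CTL, by condition, with each array as a point and mean and SD as bars. ASCL2, AXIN2 and LRMP lie lower, and KLF5, PPARA, CCL20 and IL8 higher, on the PT and PT-G arrays than on the MED-CTL arrays, while p31-43 arrays overlap MED-CTL in all 7 (AXIN2 was called for PT, and for PT-G with the replicate block only).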

How the data were processed

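Total RNA of 16 Caco-2 cultures (4 conditions, 4 arrays each) was hybridized to one-colour Agilent arrays of 41000 probes. The scanner intensities were deposited per spot as the image software gave them. The deposited log2 values were made by the authors with limma, by quantile normalization without background correction. They were equal, within 5e-09, to quantile-normalized median intensities over all 45015 spots. Here, control spots and spots flagged as outliers (0.256%) were left out and spots of a probe were averaged. Probes were named through RefSeq for 23434 of the 24863 with an NM or NR accession, and otherwise by the array's symbol where it is current. Genome positions of the probes were not used here. The number of arrays limits the precision.

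Comparisons were fitted in limma 3.58.1 (R 4.3.3), in 1 model of the 4 conditions over all 16 arrays, with 2-sided moderated tests and Benjamini-Hochberg adjustment over all probes. The call was an adjusted p under 0.05, and the methods' nominal threshold of 0.01 is given beside a count of 0. The procedure was tested on simulated data. Their noise was drawn independently for every array, so they held no noise shared within a slide, experiment or scan period, unlike the real arrays. Scan periods came from the file headers, divided at the widest gap. The members and the 24 gene lists were chosen with earlier results of these data known. The text may name any list member by its brightest probe, the 20 named genes of highest mean signal in MED-CTL, the list members called in a comparison (the 10 of largest change where over 15) and the 10 detected list members of widest spread. The image software's processed signal, other normalizations, detection marks and filters, blocks by replicate number, slide and scan period, and fits without single arrays were tried as alternatives. Some list members counted here are not reported by name.

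Replicate numbers come from the titles. Deviations from the group means of same-numbered arrays of MED-CTL and of a treated group had correlations of 0.307, 0.262, 0.653 and 0.706 for p31-43, of 0.558, 0.396, 0.857 and 0.679 for PT-G and of 0.034, 0.313, −0.00256 and 0.412 for PT. The numbers were taken to pair the samples for p31-43 and PT-G, where all 4 values were over 0.1. MED-CTL replicates 1 and 2 correlated more with the other array on their own slide, numbered 2 and 1, at 0.685 and 0.538 for p31-43, 0.723 and 0.629 for PT-G and 0.621 and 0.376 for PT.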

Additional observations from a re-analysis of the deposited data

Results flagged for a closer look

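In 13 of 249 groups of 4 arrays, over the genes named above, 1 array lay far from the other 3 by Dixon's ratio of the gap to the range at the 95% level, and chance flags about 1 in 20 groups. MED-CTL replicate 2 was lowest for ALB at 13 against a nearest value of 14.53 (ratio 0.835). MED-CTL replicate 3 was highest for CFTR (15.03, ratio 0.895), EPCAM (16.85, ratio 0.87) and TLR2 (10.68, ratio 0.831), and lowest for SCARB1 (16.05, ratio 0.896). MED-CTL replicate 4 was lowest for KLF5 (13.01 against 13.39, ratio 0.851), SLC15A1 (6.63 against 7.34, ratio 0.831) and PEG3 (5.79, ratio 0.834), and highest for SLC9A3 (6.39, ratio 0.845). MED-CTL replicate 1 was highest for TEK (6.41, ratio 0.855) and SLC6A14 (6.31, ratio 0.857) and lowest for NLRC4 (5.83, ratio 0.878). KLF5 was also lowest on p31-43 replicate 4, at 12.84 against 13.23 (ratio 0.909).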

How the results depend on the processing

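Detection depended on the mark used: with the software's test for a positive and significant signal in place of well above background, absent probes fell to 3507, and detected genes rose to 32 of 46 cytokines and chemokines and to 27 of 40 leukocyte markers. Calls in limma depended on the fit. For PT-G, where 381 probes passed, the count was 143 with the processed signal minus the 75th percentile, 188 with median scaling, 36 with only the 2 groups in the fit, 1608 with the replicate block, 3820 when slides were blocked and 1001 when scan periods were blocked. For PT, where 340 passed, the same settings gave 130, 151, 15, 1774, 2840 and 1009. For p31-43 no probe passed under any of them, the replicate block included. Leaving out 1 array gave 167 to 386 probes for PT-G, 146 to 394 for PT and 0 to 4 for p31-43. Without slide 4, a choice made after seeing the data, the counts were 420 for PT-G and 462 for PT. The 10595 probes that differed between scan periods became 0 with the MED-CTL arrays alone, where 965 had a nominal p under 0.01. No named gene called in a comparison changed direction under any alternative. In these genes' alternatives, the call was kept in 111 and lost in 41 for PT, and kept in 163 and lost in 65 for PT-G. The causes were not tested.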
